A study of Homo sapiens with 8 samples.

Results

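The genes described here are 9 genes of the HLA class II antigen presentation pathway in A549 cells, a human lung adenocarcinoma line, after treatment with a herbal extract or a cardiac glycoside isolated from it. They are HLA-DMA, HLA-DMB, HLA-DRA, HLA-DRB1, HLA-DPA1, HLA-DPB1, HLA-DOA, CD74 and CIITA, a list of symbols matched to 16 probes on the array, and they stand among 19056 genes that could be named and analysed. The list was chosen by gene symbol with the log2 ratios of each dose to its vehicle in view, HLA-DMB being on it as one of the largest falls. The ratios of these 9 genes are therefore given as a description, with no test.

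The 8 Agilent whole human genome arrays, read in a single colour, formed 2 series of 4. The first series held A549 cells given vehicle or the ethanol extract of Descurainia sophia seeds (EEDS) at 1.25, 5 or 20 µg/mL. The second held A549 cells given vehicle or helveticoside, a cardiac glycoside purified from EEDS, at 3.75, 15 or 60 nM. Each array carried RNA pooled from 3 cultures, there was 1 array per dose, the sample labels give 48 h of exposure and the methods 24 h, and no other agent is named. Each series has its own vehicle array, so the agent and the series cannot be told apart, and the absence of replicate arrays means that no value has a replicate error. Of the A549 markers found, 14 of 14 were well above background on all 8 arrays, among them EPCAM, KRT8, AKR1B10 and ALDH1A1, with a summed signal of 1168120 to 1896280. Of the 14 markers of antigen presenting and other blood cells, 4 (PTPRC, CD79A, CD14 and CORO1A) were well above background on all arrays and 5 (MS4A1, CD79B, CSF1R, LAPTM5 and FLT3) on none, with a summed signal of 3566 to 8133 in the EEDS series and 5594 to 11072 in the helveticoside series, and their part in the class II values was not tested. A probe was called well above background by the scanner software, which marked 63.3 to 64.9% of the probes in the EEDS series and 54.5 to 59.5% in the helveticoside series.

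HLA class II molecules are pairs of an alpha and a beta chain that carry peptides from endocytosed protein to the cell surface and show them to CD4+ T cells. New pairs leave the endoplasmic reticulum with CD74, the invariant chain, in their groove, and in the endosome HLA-DM, a dimer of HLA-DMA and HLA-DMB, removes the remnant of CD74 and lets a stable peptide bind, while HLA-DO, which contains HLA-DOA, restrains HLA-DM. Transcription of these genes depends on CIITA, a coactivator that professional antigen presenting cells make constitutively and that interferon gamma induces in many epithelial cells, and on an RFX, CREB and NF-Y complex that sits on the X and Y boxes of class II promoters.

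Promoters of 3 of the genes that gave signal on every array are shown because that complex is known to sit on boxes of this kind. Whether it acted on these promoters in A549 cells was not tested. They are RefSeq windows of GRCh38.p14 from 250 bases before to 50 bases after the annotated start, all on the minus strand of chromosome 6: chr6:32940979-32941278 for HLA-DMB, chr6:32953048-32953347 for HLA-DMA and chr6:32589799-32590098 for HLA-DRB1. Capitals mark every match on either strand to ACTGATGATG, the longest run that the 3 windows share and part of the X box, to GATTGG, the core of the Y box (CCAATC on the other strand), and to CTGATTGG, a longer form that contains the core.
HLA-DMB: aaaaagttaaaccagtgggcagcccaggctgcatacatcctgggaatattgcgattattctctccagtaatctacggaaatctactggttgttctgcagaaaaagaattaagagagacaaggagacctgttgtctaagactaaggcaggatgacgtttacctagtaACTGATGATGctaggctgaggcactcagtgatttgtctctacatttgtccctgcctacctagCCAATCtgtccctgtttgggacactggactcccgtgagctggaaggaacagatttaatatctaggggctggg
HLA-DMA: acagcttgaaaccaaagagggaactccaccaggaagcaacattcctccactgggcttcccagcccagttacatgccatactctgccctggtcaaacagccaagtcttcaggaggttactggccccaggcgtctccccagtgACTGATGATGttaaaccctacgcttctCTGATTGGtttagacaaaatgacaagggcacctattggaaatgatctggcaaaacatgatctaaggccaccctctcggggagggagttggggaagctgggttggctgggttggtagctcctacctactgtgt
HLA-DRB1: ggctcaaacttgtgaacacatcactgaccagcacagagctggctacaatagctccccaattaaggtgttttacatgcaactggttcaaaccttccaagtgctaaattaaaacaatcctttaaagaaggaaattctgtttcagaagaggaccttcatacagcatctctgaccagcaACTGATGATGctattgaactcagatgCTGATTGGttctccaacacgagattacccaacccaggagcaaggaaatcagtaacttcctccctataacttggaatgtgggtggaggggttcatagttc
In HLA-DMB the ACTGATGATG stretch began 84 bases before the start. The match to the core, in the reverse orientation, began 22 bases before it, with 52 bases between them. The letters gatttg, which differ from the core in a single letter, lay 19 bases after the stretch in the forward orientation and are not marked. Which of these is the Y box of HLA-DMB was not tested. In HLA-DMA the stretch began 109 bases before the start with 19 bases to the core, and in HLA-DRB1 75 bases before the start with 18 bases to the core, both in the forward orientation. The stretch was found in 0.0854% of 35116 RefSeq promoter windows, the core in 15.1% and the longer form in 3.97%. Windows that held both the stretch and the core numbered 6, or 0.0171%, and 3 of them belonged to HLA-DMB, HLA-DMA and HLA-DRB1. The stretch was defined from these sequences themselves, and a match is a description of the window, not of a factor bound there. The windows of HLA-DPA1, the remaining gene with signal on every array, held none of these letters. HLA-DRA and CIITA had no entry in the table of promoters.

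At the top dose of each agent, HLA-DMB was the single class II gene of the 9 that was more than 2-fold lower than vehicle. Lower by that much were 14.6% of the 19046 genes analysed in the EEDS series at 20 µg/mL and 12.9% of the 19056 in the helveticoside series at 60 nM. None of the 9 was more than 2-fold higher at 20 µg/mL of EEDS, where 13.4% of genes were. At 60 nM of helveticoside 1 of the 9, CD74, was counted as higher, where 10.8% of genes were, but neither array gave its probe a signal well above background and no fold is given for it. Over the 9 genes the median log2 ratio was -0.03 at 20 µg/mL and -0.01 at 60 nM, against 0.02 and -0.0039 over all genes analysed. Restricting the count to genes for which both arrays compared were well above background left 4 class II genes, 1 of which was more than 2-fold lower with each agent (background 15.9% and 13%). In RNA from whole cultures, fewer cells carrying a transcript and less transcript per cell cannot be told apart.

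**Figure D1:**
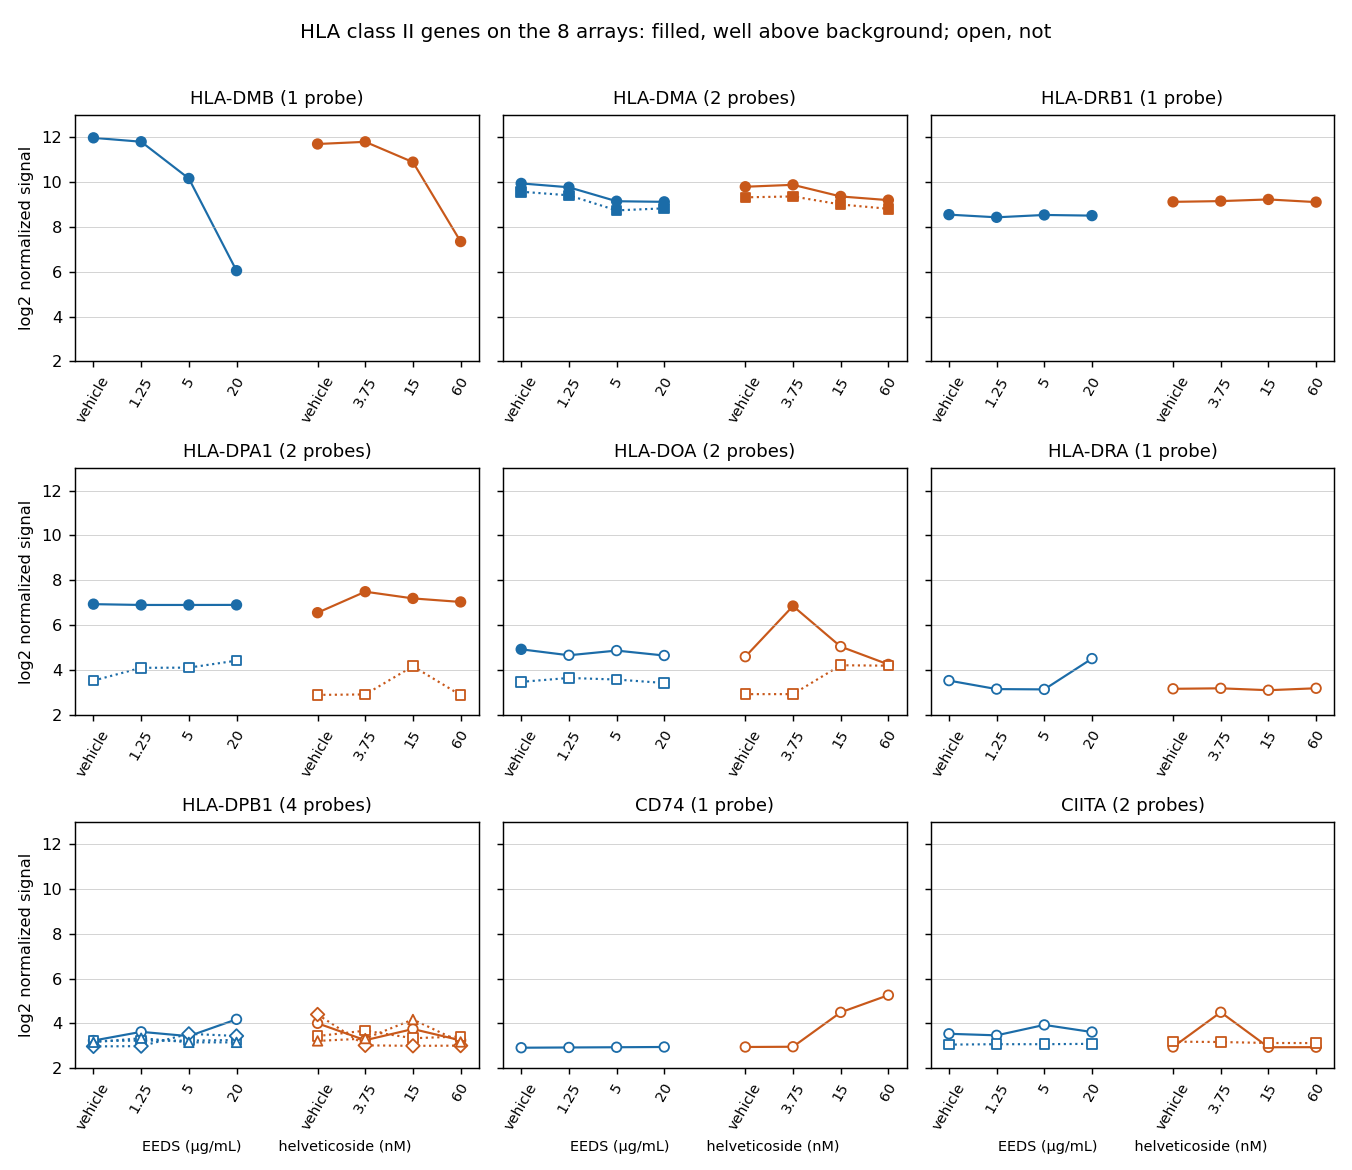
Log2 normalized signal (y axis) of every probe of the 9 genes on the 8 arrays (x axis: vehicle and doses of EEDS in µg/mL, blue, and of helveticoside in nM, orange); filled points were well above background and open points were not, and dotted lines are further probes of a gene. HLA-DMB drops from 11.97 to 6.05 with EEDS and from 11.70 to 7.35 with helveticoside, HLA-DMA shifts by less than 1 unit, and HLA-DRA, HLA-DPB1, CD74 and CIITA are open on every array.

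HLA-DMB, the beta chain of the HLA-DM peptide editor, had the largest change of the 9. Its single probe gave log2 signals of 11.97 on the EEDS vehicle array, 11.80 at 1.25 µg/mL, 10.16 at 5 µg/mL and 6.05 at 20 µg/mL. In the helveticoside series the log2 signals were 11.70 on vehicle, 11.80 at 3.75 nM, 10.89 at 15 nM and 7.35 at 60 nM. The lowest dose of each agent lay close to its vehicle, and the level then dropped at each further dose. The probe stayed well above background on all 8 arrays, although on the 20 µg/mL array its median signal was 124 against a local background of 26.

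Relative to its own vehicle, HLA-DMB was at log2 ratios of -0.17, -1.81 and -5.92 with rising EEDS dose. The corresponding ratios with helveticoside were 0.10, -0.81 and -4.35. The top-dose signals were 1.65% of vehicle with EEDS, a 60.8-fold lower value, and 4.90% with helveticoside, a 20.4-fold lower value. Most of the drop came in the last step, -4.11 log2 units from 5 to 20 µg/mL and -3.54 from 15 to 60 nM, against -1.64 and -0.91 in the step before. At 5 µg/mL of EEDS HLA-DMB was again the single member more than 2-fold lower, with a background of 8.53% of genes. At 15 nM of helveticoside no member was, with a background of 8.11%.

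Among the 12969 genes that both arrays measured well above background, HLA-DMB had the second lowest ratio at 20 µg/mL of EEDS, between KAT14 at -6.30 and SCARA5 at -5.59. At 60 nM of helveticoside it came in place 9 of 11934 such genes, between DPYSL5 at -4.42 and RIMBP3 at -4.29. This ranking left out genes such as B3GALT4 (-5.06 at 60 nM of helveticoside), whose top-dose array was not well above background. HLA-DMB was put on the list for its large fall, so its places are a description only. Averaged over the dose steps, the slope was -1.94 ± 0.52 log2 units per step (SE) with EEDS and -1.40 ± 0.52 with helveticoside, the SE coming from a fit shared by both series and including the departure from a straight line. The error that the scanner software assigned to the processed signal was 352 on a signal of 3520 for the EEDS vehicle and 8.70 on 67.1 at 20 µg/mL. The size of the fall depended on the scale: the EEDS ratio was -4.87 in the signals as scanned and -6.34 after scaling to the 75th percentile, and the helveticoside ratio was -3.59 in the values processed by the authors.

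HLA-DMA encodes the alpha chain with which HLA-DMB pairs, and its gene is the next protein-coding gene after HLA-DMB along chromosome 6. Its brighter probe read 9.94, 9.77, 9.15 and 9.12 on vehicle and rising EEDS dose in log2 signal. In the helveticoside series the same probe read 9.79, 9.88, 9.36 and 9.20. A separate probe of the gene read 9.57, 9.41, 8.74 and 8.83 with EEDS and 9.32, 9.36, 9.0 and 8.81 with helveticoside. Both probes were well above background on all 8 arrays and both placed the middle and top doses below vehicle and below the lowest dose in each series.

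The log2 ratios of HLA-DMA at the top dose were -0.82 and -0.74 for the 2 probes with EEDS, and -0.60 and -0.51 with helveticoside. HLA-DMA signal was thus 56.6 to 59.8% of vehicle at 20 µg/mL and 66.1 to 70.1% at 60 nM. In rank of fall HLA-DMA stood at place 2594 of 12969 genes with EEDS and at place 2643 of 11934 with helveticoside. With EEDS, the probes changed by -0.62 and -0.67 between 1.25 and 5 µg/mL and by -0.03 and 0.09 between 5 and 20 µg/mL. With helveticoside, they changed by -0.52 and -0.36 between 3.75 and 15 nM and by -0.16 and -0.19 between 15 and 60 nM. In both series the last step was thus the largest for HLA-DMB and not for HLA-DMA.

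The 2 chains of HLA-DM therefore had unequal ratios. At the lowest doses the HLA-DMB ratio differed from the HLA-DMA ratio by -0.01 to 0.06 log2 units over the probes and agents. At the middle doses HLA-DMB was lower by a further -0.98 to -1.02 units with EEDS and -0.38 to -0.49 with helveticoside. At the top doses the difference was -5.10 to -5.18 units with EEDS and -3.75 to -3.84 with helveticoside. The difference between the 2 genes was not tested.

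**Figure D2:**
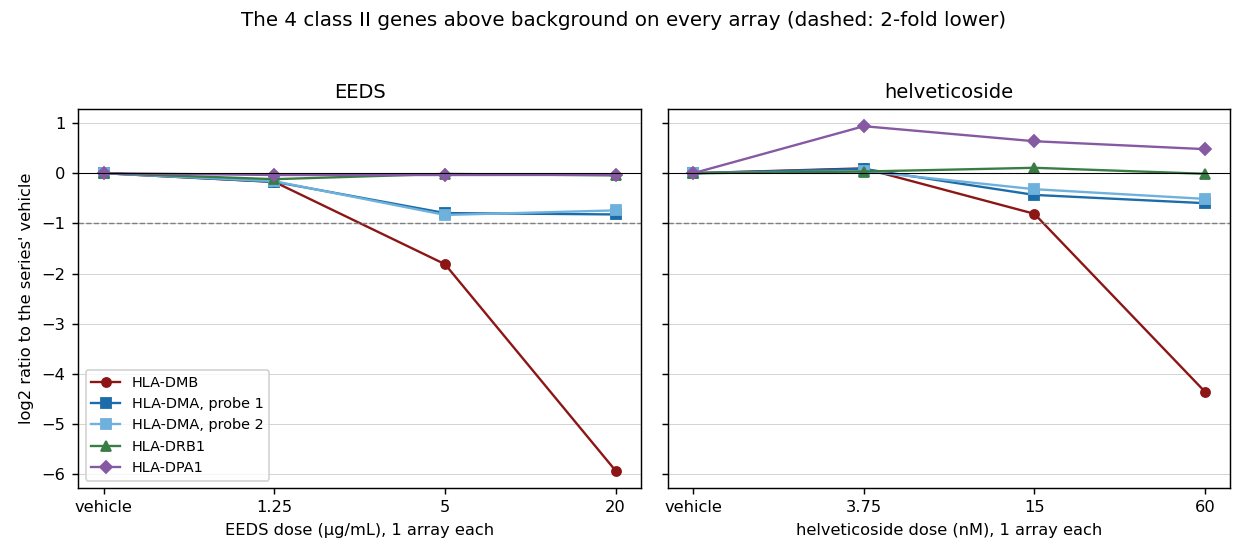
Log2 ratio to the series' own vehicle (y axis) at each dose of EEDS in µg/mL (left) and helveticoside in nM (right) for the 4 class II genes well above background on all 8 arrays, 1 array per point, with HLA-DMA drawn for both probes. HLA-DMB crosses the dashed line of a 2-fold lower signal with each agent, HLA-DMA stays between -0.83 and 0.09, and HLA-DRB1 stays within -0.12 and 0.11.

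HLA-DRB1, the polymorphic beta chain of the HLA-DR peptide receptor, was measured by 1 probe printed in 10 spots per array. Its log2 signals were 8.55, 8.43, 8.53 and 8.50 on vehicle and rising EEDS dose. In the helveticoside series they were 9.12, 9.15, 9.23 and 9.11. The log2 ratios ran from -0.12 to 0.11 over the 6 treated arrays, with no order by dose. Between the spots of the probe on an array the standard deviation was 0.12 to 0.34, a spread within arrays that does not stand for the error between them. The difference between the vehicle arrays was larger, 0.57 log2 units higher in the helveticoside series, against a standard deviation of 0.50 over the 12389 genes that both vehicle arrays measured well above background. Set against the vehicle of the other series, the top-dose ratio was -0.61 for EEDS and 0.56 for helveticoside. HLA-DRB1 is close in sequence to HLA-DRB3, HLA-DRB4 and HLA-DRB5, and which of them this probe reads was not examined.

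HLA-DPA1, the alpha chain of HLA-DP, had 1 probe well above background on all 8 arrays and another on none. The measured probe read 6.94, 6.90, 6.90 and 6.90 across the EEDS series in log2 signal. It read 6.56 on the helveticoside vehicle, 7.49 at 3.75 nM, 7.19 at 15 nM and 7.03 at 60 nM. The EEDS arrays were thus nearly equal, and all 3 helveticoside arrays were above their vehicle, at log2 ratios of 0.94, 0.64 and 0.48. Before normalization the processed signals on the helveticoside vehicle and 3.75 nM arrays were 108 and 138, with software errors of 16.1 and 17.3. The helveticoside vehicle differed from the EEDS vehicle by -0.38 log2 units for this probe, and with the vehicles exchanged the top-dose ratio was 0.35 with EEDS and 0.10 with helveticoside.

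HLA-DOA, the alpha chain of the HLA-DO modulator, was near background. Its brighter probe was well above background on 2 arrays, the EEDS vehicle at a log2 signal of 4.92 and helveticoside 3.75 nM at 6.85. On the other arrays of the EEDS series it lay between 4.65 and 4.87, and on the other helveticoside arrays between 4.25 and 5.04. At 3.75 nM of helveticoside it was at least 2.46-fold higher than vehicle, the bound being set by the lowest signal called well above background on the vehicle array. No such value was seen at 15 or 60 nM, and the other probe of HLA-DOA was not well above background on any array.

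HLA-DRA, the nearly invariant alpha chain of HLA-DR, was not well above background on any array, with log2 signals of 3.10 to 4.51. The 4 probes of HLA-DPB1, the beta chain of HLA-DP, were likewise not well above background on any array and lay between 2.97 and 4.40. For the class II coactivator CIITA, 2 probes gave log2 signals of 2.93 to 4.50, with no array well above background. For CD74, the invariant chain, the log2 signal was 2.91 to 2.95 in the EEDS series and 2.95, 2.96, 4.49 and 5.26 in the helveticoside series, again with no array well above background. No fold is given for these 4 genes, because the signals on either side of each comparison were not distinguished from background. The CD74 processed signal at 60 nM was 41.5 with a software error of 10.9, and on the helveticoside vehicle it was 12.2 with an error of 12.2. HLA-DMB read 11.97 on the EEDS vehicle and 11.70 on the helveticoside vehicle, where CIITA was not well above background. Any part of CIITA in the HLA-DMB signal was not tested.

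Along the class II region of chromosome 6, in the gene order of GRCh38.p14, HLA-DMB lies between PSMB9 and HLA-DMA. PSMB9, a subunit of the immunoproteasome, had log2 ratios of -1.02 at 20 µg/mL of EEDS and -0.68 at 60 nM of helveticoside. BRD2, a chromatin reader encoded on the far side of HLA-DMA, had ratios of 0.94 and 0.48. The ratio of HLA-DMB was below those of all other protein-coding genes measured from HLA-DRA to HLA-DPB1, the next lowest being PSMB8 at -1.39 with EEDS and -1.13 with helveticoside.

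**Figure D3:**
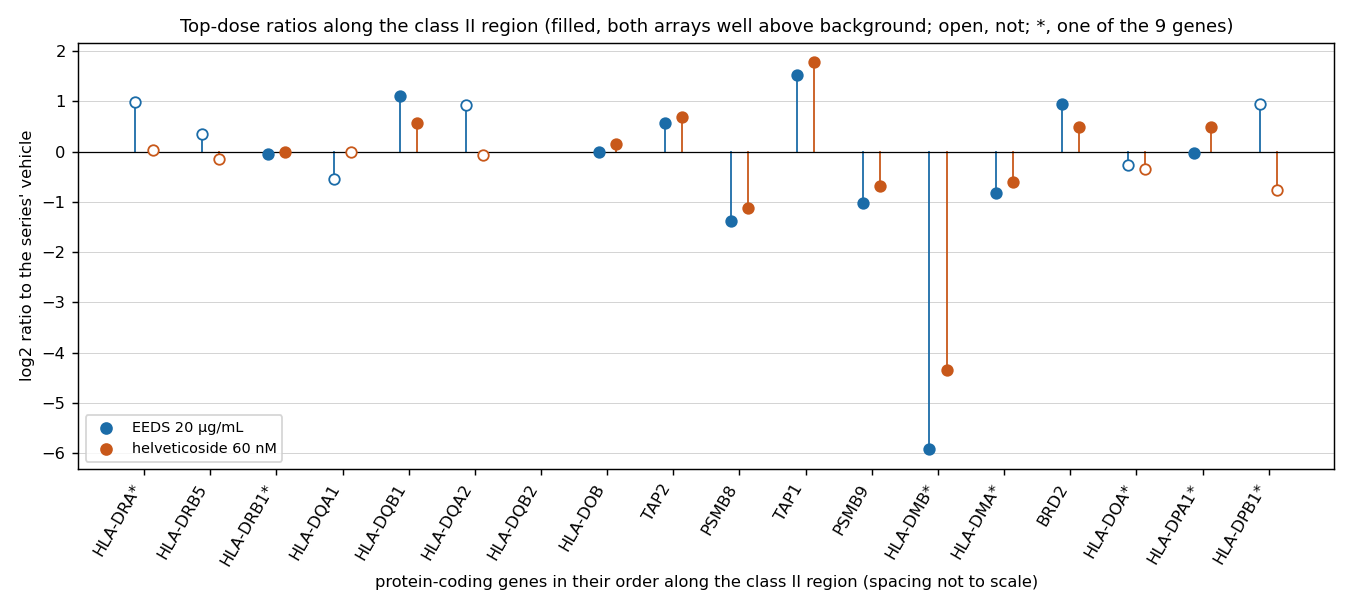
Log2 ratio to vehicle (y axis) at 20 µg/mL of EEDS (blue) and 60 nM of helveticoside (orange) for the protein-coding genes from HLA-DRA to HLA-DPB1 in their order along chromosome 6 (x axis, spacing not to scale), 1 array per point; open points had at least 1 array not well above background, HLA-DQB2 was not matched to a probe, and asterisks mark the 9 genes. HLA-DMB reaches -5.92 and -4.35, and its neighbours PSMB9 and HLA-DMA lie between -1.02 and -0.60.

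The genes with the pattern most like that of HLA-DMB were sought among the 12388 other genes that both vehicle arrays measured well above background, by Pearson's r of log2 signal over the 8 arrays. The arrays share 2 series and 2 vehicle controls, so r is a description of shape. The 5 highest were CAPN5 at 0.997, EEIG1 at 0.997, CYP2R1 at 0.996, RFX5 at 0.995 and GTF3A at 0.995 (r rounded). Their drops were smaller than that of HLA-DMB. At 20 µg/mL of EEDS, log2 ratios were -3.18 for CAPN5, a calpain protease, -2.50 for EEIG1, -2.90 for CYP2R1, a vitamin D 25-hydroxylase, -1.72 for RFX5, a subunit of the X box complex, and -1.93 for GTF3A, the 5S RNA transcription factor TFIIIA. At 60 nM of helveticoside they were -2.51, -1.72, -2.42, -1.46 and -1.35 in the same order. Each value is that of the gene's brightest probe, and another probe of RFX5 fell at every dose step. Of the class II genes, HLA-DMA had r = 0.820 with HLA-DMB (place 1770), HLA-DRB1 0.117 (place 5821) and HLA-DPA1 0.0668 (place 6040).

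**Figure D4:**
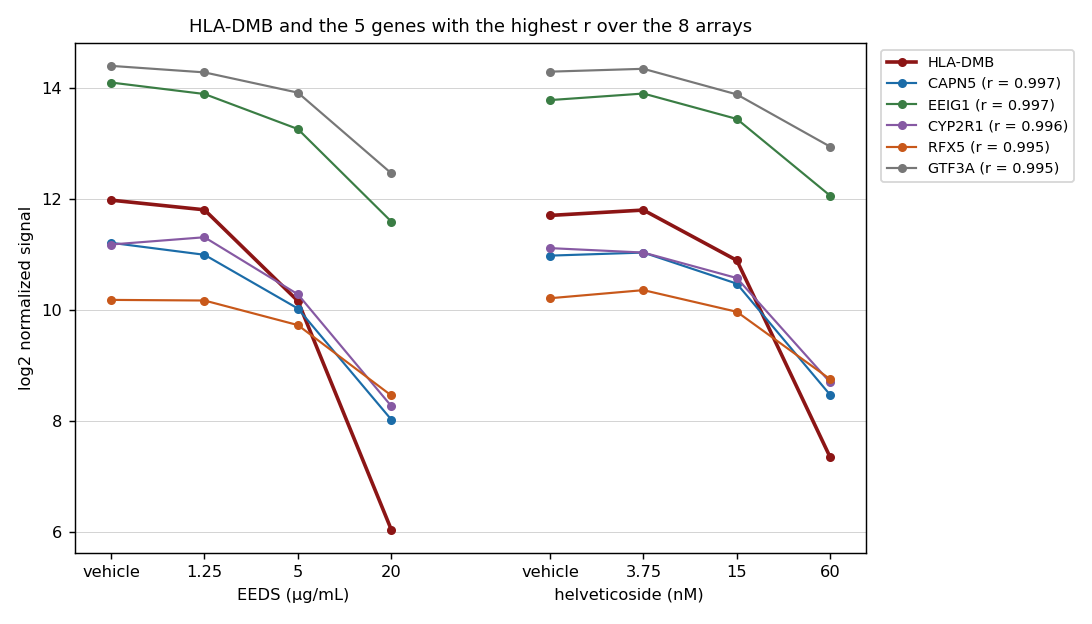
Log2 normalized signal (y axis) on the 8 arrays (x axis: vehicle and doses of EEDS in µg/mL, then of helveticoside in nM) for HLA-DMB and the 5 genes with the highest Pearson's r with it, 1 array per point. Each line is nearly level to the lowest dose and drops to the top dose, with HLA-DMB dropping furthest.

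Genes around the 9 were taken from 6 lists, and for these the dose trend was tested in limma, with p-values adjusted over all genes. Of 92 genes found, 8 rose and 3 fell with EEDS, where 7.27% of all genes rose and 7.9% fell. With helveticoside 5 rose and 4 fell, where 5.47% of all genes rose and 5.82% fell. These shares are also the background for the counts of each list below. At an unadjusted p under 0.05, 34 of the 92 passed with EEDS and 25 with helveticoside. Over all genes analysed, 6371 of 19046 and 5687 of 19056 did. After adjustment no gene passed, in these lists or among all genes, when each series was fitted alone. The same held when the lowest, the middle or the top dose was left out of both series. Whether a trend differed between the agents was not tested.

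Of the 7 remaining class II genes found, 0 passed for either agent in limma. At an unadjusted p under 0.05 there was 1 for each agent, HLA-DQA2 with EEDS and HLA-DRB4 with helveticoside, both on probes not well above background. Over all genes the counts were 6371 of 19046 and 5687 of 19056. HLA-DRB3, HLA-DQB1 and HLA-DOB were well above background on all 8 arrays, and the other 4 (HLA-DRB4, HLA-DRB5, HLA-DQA1 and HLA-DQA2) on none. HLA-DRB3, a further beta chain of HLA-DR, read 9.06, 8.51, 8.67 and 8.33 in the EEDS series, below vehicle at every dose (adjusted p = 0.161), and 9.35, 9.51, 9.55 and 9.24 in the helveticoside series (adjusted p = 0.925). HLA-DQB1, the beta chain of HLA-DQ, read 6.81, 7.33, 7.47 and 7.92 in the EEDS series (adjusted p = 0.390) and 7.94, 6.84, 7.19 and 8.51 in the helveticoside series (adjusted p = 0.686), and its other probe was not well above background on any array. HLA-DOB, the partner of HLA-DOA, read 6.18 to 6.24 in the EEDS series and 6.72 to 7.42 in the helveticoside series. The median slope of the list was 0.04 with EEDS and -0.02 with helveticoside, against 0.01 and -0.01 over all genes.

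The list of promoter factors and inducers of CIITA held 16 genes, all found, of which 3 rose and 1 fell with EEDS and 2 rose and 1 fell with helveticoside. RFXANK, a subunit of the RFX complex that binds the X box, fell with both agents. Its log2 signals were 13.18, 12.52, 12.19 and 11.70 across the EEDS series, a slope of -0.48 ± 0.06 per dose step (adjusted p = 0.014). In the helveticoside series they were 12.82, 12.57, 12.12 and 11.48, a slope of -0.45 ± 0.06 (adjusted p = 0.019). Every dose of each agent was thus below the one before it.

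RFX5, the large subunit of the same complex, read 10.18, 10.17, 9.73 and 8.46 with EEDS and 10.21, 10.36, 9.97 and 8.75 with helveticoside, and its trend did not pass (adjusted p = 0.096 and 0.153). Another probe of RFX5 had lower top-dose ratios, -2.48 and -2.22. RFXAP, the remaining subunit, read 5.86, 6.11, 6.39 and 3.10 with EEDS, where it was not well above background at the top dose and so at least 2.08-fold lower there, and 6.54, 6.11, 6.74 and 5.67 with helveticoside (adjusted p = 0.229 and 0.856). RFXAP was singled out after its values were seen, as the partner of the other subunits.

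PRDM1, a repressor of CIITA transcription in plasma cells, rose with both agents. Its slope was 0.49 ± 0.07 per step with EEDS (adjusted p = 0.017) and 0.58 ± 0.07 with helveticoside (adjusted p = 0.018). The log2 signal went from 10.06 on vehicle to 11.63 at 20 µg/mL, and from 9.78 to 11.55 at 60 nM. Its other probe had larger top-dose log2 ratios, 3.35 and 2.81 against 1.57 and 1.77. NFYC, a subunit of the Y box factor NF-Y, rose with helveticoside, from 10.63 to 11.93 (adjusted p = 0.031), and with EEDS went from 11.37 to 12.17 without passing (adjusted p = 0.060). That EEDS trend passed under 6 of 14 alternatives, the mean over the 4 probes among them, and the other probes of NFYC had top-dose ratios of 1.10 to 1.21 with EEDS against 0.80. IFNGR2, a chain of the interferon gamma receptor, rose with EEDS, from 9.35 to 10.67 (adjusted p = 0.026), and went from 8.99 to 10.03 with helveticoside (adjusted p = 0.061). IRF2, an interferon regulatory factor, rose with EEDS (adjusted p = 0.042) on a probe that was well above background only at 20 µg/mL, where it was at least 2.54-fold higher. That call held under 5 of 14 alternatives and was lost, besides the refits already named, in the signals as scanned, with normexp, with 75th percentile scaling, in the values processed by the authors and after the filter on genes well above background. The median slope of the list was 0.24 with EEDS and 0.21 with helveticoside.

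In the list of endosomal proteases and class II turnover, 11 of 14 genes were found, and limma passed 0 for either agent. At an unadjusted p under 0.05 there were 5 with EEDS and 1 with helveticoside, against 6371 of 19046 and 5687 of 19056 over all genes. CTSL, an endosomal cysteine protease, had the lowest slope of the list with EEDS, with log2 signals of 13.70, 14.08, 13.46 and 12.56 (adjusted p = 0.133), and was singled out for that. SPPL2A had the highest slope of the list with each agent. It was 0.26 with EEDS (limma adjusted p = 0.063) and 0.21 with helveticoside (limma adjusted p = 0.117). The median slope was -0.03 with EEDS and -0.02 with helveticoside.

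In the list of class I presentation, which carries peptides of cytosolic proteins, 1 of 20 genes rose and 1 fell with EEDS, and 1 rose and 2 fell with helveticoside. TAP1, a chain of the peptide transporter of the endoplasmic reticulum, rose from 11.79 on vehicle to 13.30 at 20 µg/mL (adjusted p = 0.035) and from 11.39 to 13.17 at 60 nM (adjusted p = 0.028). PSMB8, an immunoproteasome subunit, fell from 9.01 to 7.63 with EEDS (adjusted p = 0.020) and from 8.64 to 7.51 with helveticoside (adjusted p = 0.032), the latter call being lost in the signals as scanned, with normexp and in the values processed by the authors. PSMB10, another such subunit, fell with helveticoside, from 13.68 to 12.89 (adjusted p = 0.043), a call lost with 75th percentile scaling. With EEDS it went from 13.82 to 13.05 (adjusted p = 0.053), which passed under 4 of 14 alternatives. These genes of the class I pathway thus moved in opposite directions. The median slope of the list was 0.08 with EEDS and 0.10 with helveticoside.

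Of 11 genes of T cell costimulation and adhesion, 2 rose with EEDS and 1 with helveticoside, and none fell. Of all genes, 7.27% rose and 7.9% fell with EEDS, and 5.47% rose and 5.82% fell with helveticoside. In a list of 11 genes the absence of a fall therefore says little. CD274, the inhibitory ligand PD-L1, had log2 signals of 5.58, 8.35, 9.23 and 10.82 in the EEDS series, a slope of 1.66 ± 0.18 per step (adjusted p = 0.013). In the helveticoside series the signals were 4.60, 7.04, 8.57 and 10.50, a slope of 1.92 ± 0.18 (adjusted p = 0.017), and because the vehicle was not well above background the top dose was at least 30.9-fold higher. Every dose of each agent was above its vehicle, and a further probe of CD274 had top-dose ratios of 4.11 and 4.26. ICAM1, an adhesion ligand for leukocytes, rose with EEDS (adjusted p = 0.020), was well above background only at the top dose of each agent, and was at least 3.65-fold higher at 20 µg/mL and at least 1.43-fold higher at 60 nM.

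Of 28 genes found among the neighbours of the class II region on chromosome 6, 2 rose and 1 fell with EEDS, and 1 rose and 1 fell with helveticoside. SLC39A7, a zinc transporter, rose from 10.86 to 12.16 with EEDS (adjusted p = 0.021) and from 8.97 to 10.21 with helveticoside (adjusted p = 0.028). PHF1, a Polycomb-associated protein, rose with EEDS from 8.39 to 10.16 (adjusted p = 0.041), and went from 7.99 to 9.59 with helveticoside (adjusted p = 0.057). B3GALT4, a galactosyltransferase, fell with both agents and was not well above background at either top dose. It read 8.82, 8.17, 6.28 and 4.56 with EEDS and 8.18, 8.28, 6.14 and 3.12 with helveticoside, and was at least 16.1-fold lower at 20 µg/mL and at least 6.51-fold lower at 60 nM (adjusted p = 0.041 and 0.034). The median slope of the neighbours was -0.10 with EEDS and -0.03 with helveticoside.

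**Figure D5:**
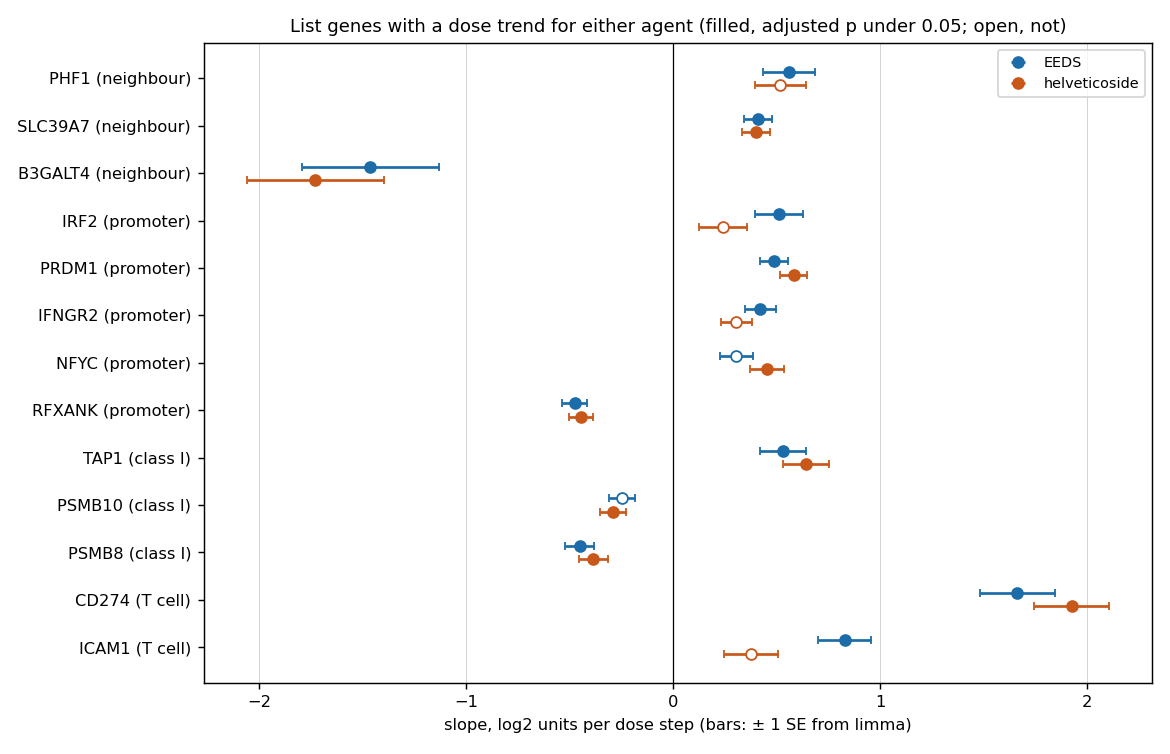
Slope of the dose trend in log2 units per dose step (x axis) with its SE from limma (bars) for the 13 list genes that passed for EEDS (blue) or helveticoside (orange), with each gene's list in brackets; filled points have an adjusted p under 0.05 and open points do not. CD274 has the highest slopes, 1.66 and 1.92, and B3GALT4 the lowest, -1.46 and -1.73. The slopes of CD274 with helveticoside and of B3GALT4, ICAM1 and IRF2 with both agents include arrays not well above background.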

How the data were processed

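Single-colour array data of A549 cells were analysed from scanner files and from the table of processed values. For each array the authors deposited fluorescence intensity per spot (processed signal with its error, median signal, local background and outlier and well-above-background calls). They also deposited a value table, which by its values is the median intensity minus background, quantile-normalized within each series. Here, without control and outlier spots, processed signals were averaged per probe, quantile-normalized over the 8 arrays and log2-transformed. The array files name probes by accession, and 24827 of 34127 probes were matched to a RefSeq symbol. Each gene was represented by its brightest probe (mean signal) and was kept in a series if its median signal was at least 1.4 times the local background on 1 of the 4 arrays. All spots of 22 probes were outliers, and no spot was saturated. A probe was taken as well above background where at least 0.5 of its spots were called so. A fold with 1 side not well above background is a bound: the brighter signal over the higher of the lowest signal called well above background on the dim array and the dim probe's own signal.

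Dose trends were fitted in limma 3.58.1 (R 4.3.3, statmod 1.5.0) over all 8 arrays, each series having its own intercept and slope on dose steps 0, 1, 2 and 3, leaving 4 residual degrees of freedom, with robust and trended empirical Bayes and Benjamini-Hochberg adjustment. The fit was tested on simulated data. With 1 array per dose, these p-values set the slope against the departure from a straight line rather than against replicate arrays, and precision is limited by the number of arrays. The 9 genes and the 6 gene lists were chosen with earlier results of these data known, and 1 listed gene is not reported here. All 9 were named, with every probe, and so were up to 6 genes per list that passed and the 5 genes with the highest r with HLA-DMB. Tables and figures were made in Python 3.11.15 (numpy 2.4.6, pandas 2.3.3, matplotlib 3.10.9).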

Additional observations from a re-analysis of the deposited data

Results flagged for a closer look

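HLA-DPA1 stood out because all 3 EEDS arrays lay below their vehicle and all 3 helveticoside arrays above theirs. The mean log2 ratio was -0.04 over the EEDS doses and 0.68 over the helveticoside doses, a difference of 0.72. With the vehicles exchanged, the top-dose ratio was 0.35 with EEDS and 0.10 with helveticoside, so the opposite directions were lost, and the mean over the 2 probes gave 0.43 and 0.23. The difference was not tested, the EEDS ratios were within 0.04 of 0, and no scan for distant single samples was possible with 1 array per group.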

How the results depend on the processing

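The count of class II genes more than 2-fold lower at the top dose stayed at 1 for each agent under the 11 alternatives tried. That gene was HLA-DMB, which was listed for its large fall, so the steadiness of this count gives no support. The count more than 2-fold higher was 0 for EEDS and became 1 with the vehicle of the other series. For helveticoside it was 1 and became 0 with the signal as scanned, with normexp, with the values processed by the authors, with genes well above background on at least 1 array and, in an alternative chosen after seeing the data, with genes well above background on both arrays compared. The HLA-DMB ratio ran from -6.34 to -4.87 with EEDS and from -4.35 to -3.59 with helveticoside, without the exchange of vehicles, which gave -5.65 and -4.63. Of the list genes, 8 rose and 3 fell with EEDS and 5 rose and 4 fell with helveticoside. These counts all became 0 when a series was fitted alone or when the lowest, the middle or the top dose was left out, where no gene of the whole table passed. The genes falling with EEDS numbered 5 with the signal as scanned, with normexp and with 75th percentile scaling, 9 in the values processed by the authors and 6 after the filter on genes well above background, and those rising with EEDS 5 when the genes had to be well above background on every array, a count added after seeing the data. No paired analysis was possible because the labels give no replicate numbers and each dose has 1 array.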
